A study of Mus musculus with 9 samples.

Results

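The Nrf2 antioxidant response was followed through 10 mouse genes, chosen by name from the 37224 genes of the count table. They were the transcription factor Nrf2 itself (Nfe2l2), its inhibitor Keap1, and the response genes Hmox1, Nqo1, Gclm, Gclc, Txnrd1, Srxn1, Slc7a11 and Gpx4. All 10 were found under their Ensembl identifiers, and all 10 passed the low-count filter that left 18085 genes for testing. Levels were measured by RNA sequencing in 3 groups of C57BL/6 cells with 3 libraries each. iGABA cells were P0 fibroblasts at day 14 of reprogramming toward GABAergic interneurons, kept for 2 days in MEF medium before neuronal medium, and sorted for GFP. GAD67 cells were GFP-sorted primary interneurons of the cortex at E18.5, which the design text calls GAD67-GFP+. MEF cells were P0 primary embryonic fibroblasts from E13.5 embryos, detached with trypsin and not sorted. The labels do not say which reporter marked iGABA cells, nor whether MEF cells had already been moved to neuronal inducing medium. Nothing in them ties a replicate to a culture or animal of its own, so p-values measure the spread between libraries, which may be technical. Sorting, culture and cell origin differ together between the groups, and their effects cannot be told apart.

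Nrf2 is a transcription factor that Keap1 holds in the cytoplasm and hands to a Cul3 ubiquitin ligase for degradation. Oxidants and electrophiles modify cysteines of Keap1, Nrf2 then accumulates, pairs with a small Maf protein and binds antioxidant response elements near genes of glutathione synthesis, thioredoxin reduction, quinone reduction and haem breakdown. Because this switch acts on the protein, the transcript levels of Nfe2l2 and Keap1 do not measure Nrf2 activity, and that activity was not measured here. In the brain the response is known to be stronger in astrocytes than in neurons, where Nfe2l2 is transcribed at a low level.

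The 9 libraries held between 27501521 and 38975523 counts, and 3 counts, the limit that a count of 0 allows in a library, corresponded to between 0.0770 and 0.109 CPM, the depth-scaled count unit. Such limits cover counting error only. Mitochondrial genes took at most 4.36% of counts in iGABA, 1.40% in GAD67 and 1.07% in MEF libraries, and the part of this in the results was not tested. Fibroblast markers summed to between 965 and 1309 normalised CPM in iGABA, 206 and 217 in GAD67 and 83752 and 92755 in MEF libraries. Neuron and interneuron markers summed to between 1331 and 1338 in iGABA, 11100 and 11715 in GAD67 and 80.5 and 85.0 in MEF libraries. All 14 of them were higher in iGABA and in GAD67 than in MEF cells, beside 42.1% and 43.1% of all tested genes. For a gene used in sorting, as GAD67 was, or any gene delivered for reprogramming, this is no independent check of identity. Of the same 14, 1 was higher and 13 lower in iGABA than in GAD67 cells (median log2 fold change -3.36), beside 41.3% and 39.3% of all tested genes. The GABA-synthesising enzymes Gad2 and Gad1 stood at 9.45 ± 1.05 and 405 ± 8.21 CPM in iGABA against 514 ± 34.4 and 745 ± 25.2 CPM in GAD67 cells (SD, n = 3 each). Snap25 stood higher in iGABA, at 121 ± 2.84 against 102 ± 4.29 CPM. Macrophage and microglia markers summed to between 11.3 and 13.4 CPM in iGABA, 6.68 and 8.39 in GAD67 and 609 and 657 in MEF libraries. Of those 13 markers only Cd68 reached 1 CPM in iGABA or in GAD67 cells, while all 13 did so in MEF cells. Red blood cell markers summed to between 18.8 and 48.2 CPM in GAD67 libraries, and to less than 1 CPM in each library of the other groups. Astrocyte and radial glia markers summed to between 242 and 250 CPM in iGABA, 87.8 and 90.9 in GAD67 and 484 and 557 in MEF libraries. The MEF sum was mostly Gja1, at 453 ± 32.9 CPM, and the iGABA sum mostly Aldoc, at 175 ± 5.37 CPM. In GAD67 over MEF 4 of 8 tested markers were higher and 4 lower, beside 43.1% and 43.8% of all tested genes. Slc1a2 stood at 40.8 ± 4.76 CPM in GAD67, against 0.688 ± 0.0993 CPM in MEF cells. Endothelial markers summed to between 2.56 and 5.13 CPM in iGABA, 15.7 and 53.5 in GAD67 and 236 and 254 in MEF libraries, but Flt1 alone made up 228 ± 8.00 CPM of the MEF sum. In GAD67 over MEF 4 of the 7 endothelial markers were higher and 1 lower, beside the same shares of all tested genes. Cldn5 stood at 7.03 ± 3.75 CPM in GAD67 cells and had no count in MEF libraries. In such bulk samples, fewer cells of a type and less RNA per cell cannot be told apart.

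The transcript of Nrf2 was lower in iGABA and in GAD67 cells than in MEF cells. Values are counts scaled by TMM factors, and a call is an adjusted p under 0.05 over all tested genes. Nfe2l2 (ENSMUSG00000015839, mm10 chromosome 2, 75675513 to 75704641, minus strand) stood at 26.4, 26.7 and 29.5 normalised CPM in the iGABA libraries, at 1.33, 1.64 and 1.55 in GAD67 and at 85.7, 92.8 and 94.7 in MEF. No iGABA library overlapped either other group. The level was 3.31-fold lower in iGABA than in MEF cells (95% interval 2.99 to 3.67, edgeR's quasi-likelihood test, adjusted p = 5.95e-11) and 60.3-fold lower in GAD67 than in MEF cells (52.3 to 69.6, edgeR, adjusted p = 6.01e-15). Converted cells held 18.2-fold more Nfe2l2 transcript than cortical interneurons (15.8 to 21.1, edgeR, adjusted p = 3.39e-13).

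Keap1, the adaptor that presents Nrf2 for degradation, differed by at most 1.26-fold between groups with TMM factors in the main fit. Over the alternative scalings and fits, the log2 fold change of Keap1 in iGABA over MEF ran from 0.29 to 0.75. Keap1 (ENSMUSG00000003308, chromosome 9, 21229730 to 21239332, minus strand) gave 86.1, 88.7 and 84.1 CPM in iGABA, 70.4, 75.4 and 64.4 in GAD67 and 67.6, 66.0 and 72.2 in MEF libraries. The iGABA libraries lay above all others, by 1.26-fold over MEF (edgeR, adjusted p = 0.000346) and 1.23-fold over GAD67 (edgeR, adjusted p = 0.000734). GAD67 and MEF values overlapped, with a log2 fold change of 0.03 (95% interval -0.11 to 0.17, edgeR, adjusted p = 0.661), while unadjusted library sizes, without TMM factors, gave 0.25 and a call (edgeR, adjusted p = 0.00264). A 513-base stretch of the Keap1 transcript, 14.2% of it, matched another annotated gene, Gm16754, so reads there are uncertain.

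Within a library the Nfe2l2 to Keap1 ratio of counts per kilobase of exon does not depend on how libraries are scaled. It was 0.361, 0.354 and 0.413 in iGABA, 0.0222, 0.0257 and 0.0284 in GAD67 and 1.49, 1.66 and 1.55 in MEF libraries. Transcripts of the factor thus outnumbered those of its inhibitor per kilobase in MEF cells only.

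Patterns like those of the 2 regulators were sought as the smallest Euclidean distance between log2 CPM (pseudocount 0.05), each gene centred on its mean over the 9 libraries. Nearest to Nfe2l2 were Cmklr1, Tanc1 and Gm6169, at distances of 0.482, 0.527 and 0.542 log2 units. Nearest to Keap1 were Napa, Ndufa8 and Gipc1, at 0.0908, 0.102 and 0.123.

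**Figure D1:**
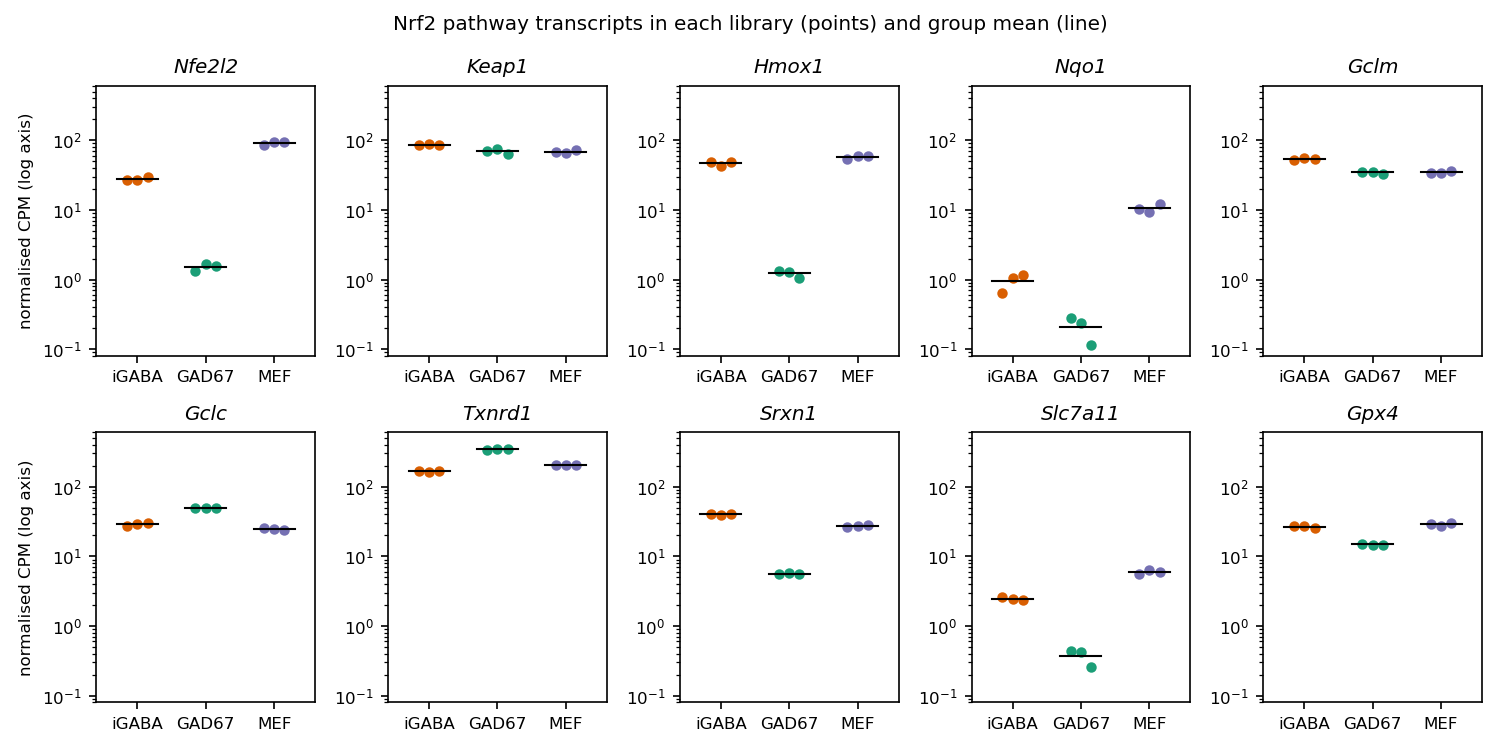
Normalised CPM of the 10 genes (log axis) in each library (points) with the group mean (line), for iGABA, GAD67 and MEF cells. Nfe2l2, Hmox1, Nqo1 and Slc7a11 are lowest in GAD67 cells, at 1.51, 1.22, 0.211 and 0.371 CPM on average, while Gclc and Txnrd1 are highest there, at 49.96 and 343 CPM.

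Since the response genes did not move with Nfe2l2 in a single direction, the sequence just before their start sites was examined. RefSeq start sites on GRCm38.p6 were given for 8 of the 10 genes, Hmox1 and Gclc being the others, with 13 windows of 250 bases before a start. They were searched on both strands for TGACNNNGC, the core of the antioxidant response element, for its variant TGAGNNNGC, and for the AP-1 site TGACTCA, which can overlap either. The core was present before Nfe2l2, Gclm and Txnrd1, in 3 of the 13 windows, against 10.2% of all 32851 windows. The variant was present before Srxn1 and Slc7a11, in 2 windows, against 14.4% of all. The AP-1 site was present before Srxn1 in 2 places, of which the one nearer the start lies inside the variant match TGAGTCAGC, against 4.46% of all windows with at least 1 match. None of these was found before Keap1, Nqo1 or Gpx4, which says only that these letters are not in these windows. Slc7a11, which has a variant match, fell in both iGABA and GAD67 cells and is not shown. Gpx4, not called in iGABA over MEF, has no match and is not shown either. Shown are the matched windows of Nfe2l2 and of 3 response genes that did not fall with it in iGABA, in GAD67 or in both. Matches to the core or its variant are in capitals.
Nfe2l2 (chr2:75704664-75704913, minus strand): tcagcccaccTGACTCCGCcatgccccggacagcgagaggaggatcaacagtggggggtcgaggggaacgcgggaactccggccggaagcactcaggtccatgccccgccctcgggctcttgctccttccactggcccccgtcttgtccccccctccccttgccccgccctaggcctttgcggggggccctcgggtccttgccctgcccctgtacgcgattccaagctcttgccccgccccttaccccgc
Gclm (chr3:122245307-122245556, plus strand): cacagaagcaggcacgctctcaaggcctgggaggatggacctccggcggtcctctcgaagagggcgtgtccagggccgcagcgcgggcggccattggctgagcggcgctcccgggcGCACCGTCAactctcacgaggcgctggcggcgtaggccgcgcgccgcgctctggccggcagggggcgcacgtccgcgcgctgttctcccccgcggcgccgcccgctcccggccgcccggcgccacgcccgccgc
Txnrd1 (chr10:82858956-82859205, plus strand): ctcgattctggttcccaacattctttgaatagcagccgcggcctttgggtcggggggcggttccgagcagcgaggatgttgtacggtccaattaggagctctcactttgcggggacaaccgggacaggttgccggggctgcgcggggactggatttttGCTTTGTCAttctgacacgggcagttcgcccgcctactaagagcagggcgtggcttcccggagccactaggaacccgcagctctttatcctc
Srxn1 (chr2:152105274-152105523, plus strand): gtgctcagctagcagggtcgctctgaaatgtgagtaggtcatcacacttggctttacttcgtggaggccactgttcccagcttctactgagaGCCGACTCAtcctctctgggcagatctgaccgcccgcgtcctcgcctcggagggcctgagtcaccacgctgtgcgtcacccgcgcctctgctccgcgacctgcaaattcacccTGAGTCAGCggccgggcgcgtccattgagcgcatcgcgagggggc
In the Gclm and Txnrd1 windows the core reads on the opposite strand, as TGACGGTGC and TGACAAAGC, with its far end 134 and 92 bases before the start. A match is a description of the letters and does not show that Nrf2 was bound.

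Hmox1 and Nqo1 are the classic readouts of Nrf2 activity. Hmox1 (ENSMUSG00000005413, chromosome 8, 75093591 to 75100596, plus strand), the inducible haem oxygenase, gave 48.0, 42.4 and 48.5 CPM in iGABA, 1.33, 1.30 and 1.04 in GAD67 and 53.3, 58.9 and 59.2 in MEF libraries. The GAD67 libraries stood far below both other groups, 46.4-fold under MEF (95% interval 39.5 to 54.5, edgeR, adjusted p = 2.83e-14), and iGABA was 37.6-fold above GAD67 (32.0 to 44.1, edgeR, adjusted p = 1.17e-13). Between iGABA and MEF the level was 1.23-fold lower (edgeR, adjusted p = 0.00177), and unadjusted library sizes turned this to a log2 fold change of 0.11 that did not pass (edgeR, adjusted p = 0.158). Macrophages also transcribe Hmox1. The 13 macrophage and microglia markers summed to between 11.3 and 13.4 CPM in iGABA libraries, where Hmox1 averaged 46.3 ± 3.36 CPM. They summed to between 609 and 657 CPM in MEF libraries, where Hmox1 averaged 57.1 ± 3.34 CPM (SD, n = 3 each). The part of macrophages in either level was not tested. The constitutive haem oxygenase Hmox2 spanned a narrower range, at 42.9 ± 1.66 CPM in iGABA, 30.9 ± 1.26 in GAD67 and 39.3 ± 3.42 in MEF cells. It was 1.27-fold lower in GAD67 than in MEF cells (edgeR, adjusted p = 0.000471), which did not pass with unadjusted library sizes (edgeR, adjusted p = 0.0829).

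Nqo1 (ENSMUSG00000003849, chromosome 8, 107388225 to 107403206, minus strand), which reduces quinones, stood at 0.643, 1.05 and 1.16 CPM in iGABA, 0.281, 0.239 and 0.113 in GAD67 and 10.4, 9.25 and 12.3 in MEF libraries. These rested on 26, 44 and 37 counts in iGABA and on 11, 9 and 4 in GAD67, so both low groups are measured with wide error. The level was 11.3-fold lower in iGABA than in MEF cells (95% interval 8.13 to 15.7, edgeR, adjusted p = 6.01e-09) and 49.1-fold lower in GAD67 than in MEF cells (32.5 to 74.2, edgeR, adjusted p = 3.05e-10). Of the 10 genes, Nqo1 had the largest fitted fall between iGABA and MEF cells, a log2 fold change of -3.50, where Hmox1 had -0.30.

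Glutathione synthesis starts with glutamate-cysteine ligase, made of the catalytic subunit Gclc and the modifier subunit Gclm, and these 2 subunits were differently placed in the groups. Gclm (ENSMUSG00000028124, chromosome 3, 122245557 to 122269984, plus strand) gave 52.4, 55.8 and 54.5 CPM in iGABA, 34.6, 35.5 and 33.2 in GAD67 and 33.8, 34.1 and 35.8 in MEF libraries. iGABA cells were above both other groups, which overlapped, at 1.57-fold over MEF (95% interval 1.44 to 1.71, edgeR, adjusted p = 1.78e-07). Between GAD67 and MEF cells the log2 fold change was -0.01 (-0.13 to 0.12, edgeR, adjusted p = 0.918), and unadjusted library sizes gave 0.22 and a call (edgeR, adjusted p = 0.00247). A repeat of up to 349 bases, 6.24% of the Gclm transcript, matched other genes, and 244 exon bases overlapped Gm6061 on the same strand, which had 226 counts over the 9 libraries.

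Gclc (ENSMUSG00000032350, chromosome 9, 77754535 to 77794485, plus strand) gave 27.1, 29.2 and 30.1 CPM in iGABA, 50.1, 50.0 and 49.8 in GAD67 and 25.2, 25.1 and 23.6 in MEF libraries. GAD67 cells exceeded MEF cells 2.03-fold (95% interval 1.85 to 2.23, edgeR, adjusted p = 2.43e-09), and iGABA cells exceeded MEF cells 1.17-fold (1.07 to 1.28, edgeR, adjusted p = 0.00407). The Gclm to Gclc ratio per kilobase was 1.20, 1.18 and 1.12 in iGABA, 0.427, 0.439 and 0.412 in GAD67 and 0.831, 0.840 and 0.939 in MEF libraries. The 3 groups did not overlap. The log2 difference was 0.42 for iGABA over MEF, -1.03 for GAD67 over MEF and 1.45 for iGABA over GAD67, each with p = 0.1 in an exact two-sided permutation test, the smallest value that 3 against 3 libraries allow.

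**Figure D2:**
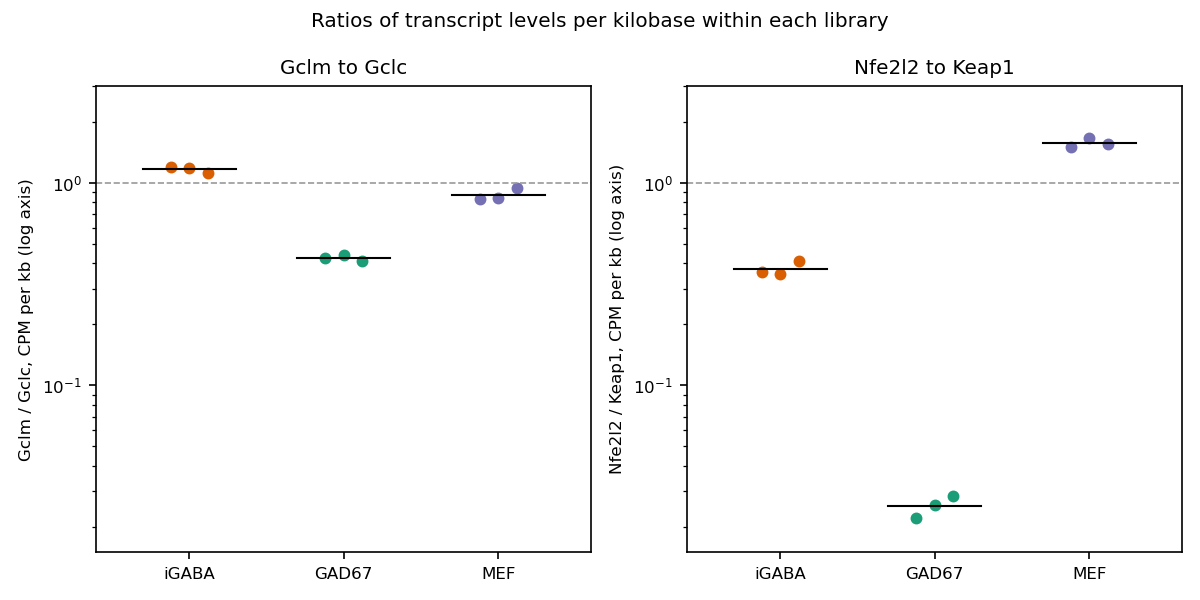
Ratios of normalised CPM per kilobase of exon in each library (points, log axis) with the group mean (line) for iGABA, GAD67 and MEF cells: Gclm to Gclc (left) and Nfe2l2 to Keap1 (right), with a dashed line at 1. The Gclm to Gclc ratio lies above 1 in iGABA cells alone, and the Nfe2l2 to Keap1 ratio lies above 1 in MEF cells alone.

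Cystine for glutathione enters through Slc7a11, the light chain of the cystine-glutamate exchanger. Slc7a11 (ENSMUSG00000027737, chromosome 3, 50364936 to 50443613, minus strand) was low throughout, at 2.62, 2.46 and 2.35 CPM in iGABA, 0.434, 0.424 and 0.254 in GAD67 and 5.64, 6.42 and 5.89 in MEF libraries. The GAD67 values came from 17, 16 and 9 counts. It was 2.41-fold lower in iGABA than in MEF cells (edgeR, adjusted p = 4.94e-06) and 15.9-fold lower in GAD67 than in MEF cells (edgeR, adjusted p = 3.82e-10). Part of its long transcript, 10.5%, matched alpha-tubulin genes and their copies, so reads there are uncertain. The heavy chain Slc3a2, which it shares with other amino acid exchangers, stood at 195 ± 4.01 CPM in iGABA, 68.9 ± 2.94 in GAD67 and 411 ± 27.6 in MEF cells. It was 2.10-fold lower in iGABA and 5.96-fold lower in GAD67 than in MEF cells (edgeR, adjusted p = 1.72e-09 and 2.38e-13). The neuronal carrier of glutamate and cysteine Slc1a1 went the other way, at 1.39, 2.17 and 1.75 CPM in iGABA, 18.4, 22.8 and 14.3 in GAD67 and 0.806, 0.395 and 0.815 in MEF libraries.

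Glutathione synthetase (Gss), which adds glycine in the second step, stood at 95.9, 96.7 and 97.8 CPM in iGABA, 6.18, 6.47 and 7.17 in GAD67 and 19.8, 16.6 and 19.0 in MEF libraries. It was 5.24-fold higher in iGABA than in MEF cells (edgeR, adjusted p = 4.58e-12) and 14.7-fold higher than in GAD67 cells (edgeR, adjusted p = 1.34e-13). Glutathione reductase (Gsr) overlapped between iGABA and MEF cells, at 44.3 ± 0.874 and 44.7 ± 2.45 CPM, and was at 15.8 ± 1.87 CPM in GAD67 cells. Unadjusted library sizes gave Gsr a call between iGABA and MEF, at a log2 fold change of 0.40 (edgeR, adjusted p = 0.000359).

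The thioredoxin arm had the most abundant transcript of the 10 genes. Txnrd1 (ENSMUSG00000020250, chromosome 10, 82859206 to 82897724, plus strand), the cytosolic thioredoxin reductase, gave 166, 162 and 169 CPM in iGABA, 337, 345 and 348 in GAD67 and 202, 204 and 207 in MEF libraries. GAD67 cells were 1.68-fold above MEF (95% interval 1.56 to 1.80, edgeR, adjusted p = 4.58e-09), and iGABA cells were 2.08-fold below GAD67 (1.93 to 2.23, edgeR, adjusted p = 2.15e-10). iGABA cells were 1.24-fold below MEF (edgeR, adjusted p = 4.70e-05), but with unadjusted library sizes the direction turned, at a log2 fold change of 0.11 (edgeR, adjusted p = 0.0402). Its substrate thioredoxin, Txn1, was lower in both groups than in MEF cells, at 86.5 ± 0.666 CPM in iGABA, 49.0 ± 4.90 in GAD67 and 193 ± 4.65 in MEF cells. The reductase and its substrate were thus set in opposite directions in GAD67 cells.

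Srxn1 (ENSMUSG00000032802, chromosome 2, 152105516 to 152111376, plus strand), which restores overoxidised peroxiredoxins, gave 40.5, 39.2 and 40.4 CPM in iGABA, 5.65, 5.73 and 5.59 in GAD67 and 26.1, 27.7 and 28.2 in MEF libraries. The groups did not overlap. It was 1.46-fold higher in iGABA than in MEF cells (95% interval 1.33 to 1.61, edgeR, adjusted p = 2.76e-06) and 4.83-fold lower in GAD67 than in MEF cells (4.34 to 5.38, edgeR, adjusted p = 3.05e-12). The contrast between the converted and the cortical cells was therefore 7.07-fold (6.36 to 7.87, edgeR, adjusted p = 6.80e-13), with the converted cells higher.

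Gpx4 (ENSMUSG00000075706, chromosome 10, 80047166 to 80056439, plus strand), the selenoprotein that reduces lipid hydroperoxides and holds back ferroptosis, gave 27.3, 27.2 and 25.5 CPM in iGABA, 15.3, 14.8 and 14.7 in GAD67 and 28.8, 27.1 and 30.6 in MEF libraries. iGABA and MEF libraries overlapped, with a log2 fold change of -0.11 (95% interval -0.26 to 0.04, edgeR, adjusted p = 0.146) that became 0.30 and a call with unadjusted library sizes (edgeR, adjusted p = 0.00113). GAD67 cells were 1.93-fold below MEF (edgeR, adjusted p = 3.10e-08). Other annotated genes, Gpx4-ps2 among them, matched 73.7% of a Gpx4 transcript at 90% identity or more, so its reads may have been split or dropped and its level is uncertain.

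Set side by side, the comparisons called different numbers of the 10 genes. In iGABA against MEF cells 4 were higher and 5 lower, with Gpx4 not called, where edgeR called 81.9% of all tested genes, 42.1% higher and 39.7% lower. With unadjusted library sizes the balance turned, to 6 higher and 3 lower. In GAD67 against MEF cells 2 were higher, Gclc and Txnrd1, and 6 lower, where 86.9% of all genes were called, 43.1% higher and 43.8% lower. With unadjusted library sizes 4 were higher and 6 lower. In iGABA against GAD67 cells 8 were higher and 2 lower, again Gclc and Txnrd1, where 80.6% of all genes were called, 41.3% higher and 39.3% lower. Most genes were called in every comparison, so a call alone sets none of the 10 apart. The median log2 fold change of the 10 genes was -0.21 in iGABA over MEF, -1.61 in GAD67 over MEF and 1.48 in iGABA over GAD67, beside 0.05, 0.00 and 0.02 over all tested genes, and with unadjusted library sizes the first of these turned to 0.21. These comparisons share groups, so they are not independent of each other.

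Calls of at least 2-fold were made for 3 of the 10 genes in iGABA over MEF, Nfe2l2, Nqo1 and Slc7a11, where 47.7% of all tested genes reached that size. They were made for 6 of 10 in GAD67 over MEF (60.1% of all) and 6 of 10 in iGABA over GAD67 (46.6% of all). By order of group means, 5 genes ran from MEF down through iGABA to GAD67, namely Nfe2l2, Hmox1, Nqo1, Slc7a11 and Gpx4. Gclm and Srxn1 ran from iGABA through MEF to GAD67. Keap1, Gclc and Txnrd1 each had an order of its own. Neighbours overlapped for Keap1 and Gclm, between GAD67 and MEF, and for Gpx4, between MEF and iGABA. Orders and overlaps were not counted over all tested genes, so they set none of the 10 genes apart.

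**Figure D3:**
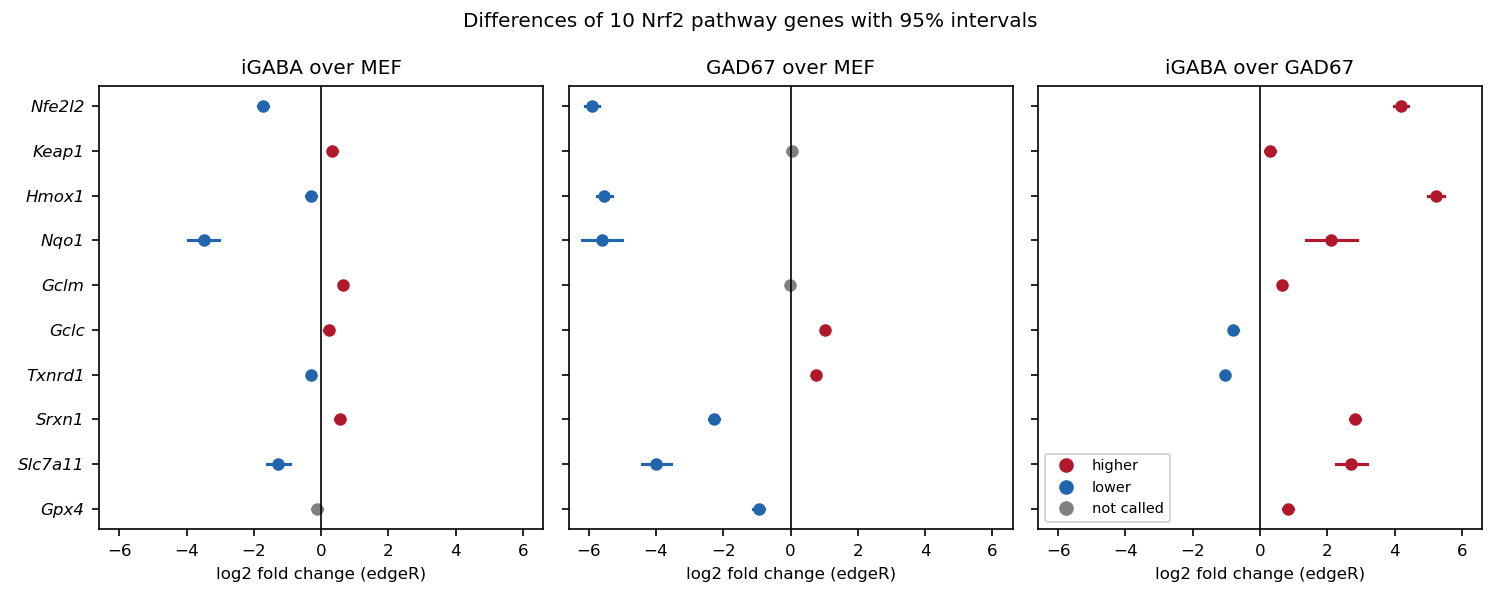
Log2 fold changes of the 10 genes with 95% intervals in the 3 comparisons, coloured by whether edgeR called the gene higher, lower or neither at adjusted p under 0.05. In iGABA over MEF most genes lie within 1 log2 unit of 0, with Nqo1 at -3.50. In GAD67 over MEF, Nfe2l2, Hmox1 and Nqo1 lie beyond -5 while Gclc and Txnrd1 lie above 0.

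Compared per kilobase of exon, Txnrd1 was the most abundant of the 10 transcripts in every group, at 48.4 ± 1.07 CPM per kilobase in iGABA, 100.5 ± 1.74 in GAD67 and 59.9 ± 0.768 in MEF cells, and Slc7a11 the least, at 0.220 ± 0.0124, 0.0330 ± 0.00900 and 0.532 ± 0.0353 in the same groups (SD, n = 3 each). Hmox1 was next after Txnrd1 in iGABA and MEF cells, at 21.4 ± 1.56 and 26.4 ± 1.54. In GAD67 cells Keap1 followed Txnrd1, at 15.7 ± 1.22, with Gclc at 14.6 ± 0.0362.

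The counts of the gene lists that follow are to be read beside the shares of all tested genes, 42.1% higher and 39.7% lower in iGABA over MEF, 43.1% and 43.8% in GAD67 over MEF, and 41.3% and 39.3% in iGABA over GAD67. Of 14 genes that control or pair with Nrf2, 5 rose and 8 fell in iGABA over MEF (median log2 fold change -0.24). With unadjusted library sizes this turned to 7 and 6 (median 0.18). In GAD67 over MEF 7 rose and 5 fell (median 0.20), or 8 and 5 with unadjusted library sizes. In iGABA over GAD67, 5 were higher and 9 lower. Bach1, a repressor that competes with Nrf2 for its elements, stood at 46.5 ± 2.32 CPM in iGABA, 113 ± 2.90 in GAD67 and 159 ± 0.615 in MEF cells, a 3.41-fold fall in iGABA over MEF (edgeR, adjusted p = 3.74e-12). Its relative Bach2 stood at 5.71 ± 0.215 CPM in iGABA, 154 ± 11.8 in GAD67 and 13.1 ± 2.58 in MEF cells, 11.8-fold above MEF in GAD67 cells and 26.9-fold lower in iGABA than in GAD67 cells (edgeR, adjusted p = 4.64e-12 and 1.14e-12). The small Maf gene Maff, at 31.7 ± 0.505 CPM in iGABA, 2.08 ± 0.118 in GAD67 and 37.8 ± 3.28 in MEF cells, was 15.3-fold higher in iGABA than in GAD67 cells (edgeR, adjusted p = 5.62e-13). Nfe2l1, the related factor that drives proteasome genes, was 1.73-fold lower in iGABA and 4.14-fold lower in GAD67 than in MEF cells. At 143 ± 2.81 CPM in GAD67 cells it stayed well above the Nfe2l2 level there. Cul3, the ligase scaffold that Keap1 uses, was 1.95-fold lower in iGABA than in MEF cells. The Keap1-binding autophagy receptor Sqstm1 overlapped between iGABA and MEF cells, at 322 ± 14.2 and 339 ± 22.2 CPM, and stood at 166 ± 16.6 CPM in GAD67 cells.

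Most other genes with antioxidant response elements were lower in iGABA and in GAD67 cells than in MEF cells. Of 24, 6 rose and 15 fell in iGABA over MEF (median log2 fold change -1.19; 9 and 15 with unadjusted library sizes), and 4 rose and 20 fell in GAD67 over MEF (median -2.28). In iGABA over GAD67, 17 were higher and 5 lower (19 and 3 with unadjusted library sizes). The malic enzyme Me1, which makes NADPH, stood at 8.91 ± 1.17 CPM in iGABA, 4.26 ± 1.16 in GAD67 and 104 ± 5.19 in MEF cells. The microsomal transferase Mgst1 stood at 0.690 ± 0.0836 CPM in iGABA, 0.385 ± 0.0734 in GAD67 and 29.6 ± 2.71 in MEF cells, 43.0-fold lower in iGABA than in MEF cells (edgeR, adjusted p = 1.19e-12). The epoxide hydrolase Ephx1, at 51.4 ± 1.74 CPM in iGABA and 1.12 ± 0.421 in GAD67 cells, was 45.9-fold higher in the converted cells (edgeR, adjusted p = 1.07e-12), with 185 ± 9.38 CPM in MEF cells.

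Glutathione S-transferases couple glutathione to electrophiles. Of 18, 8 rose and 9 fell in iGABA over MEF, near the shares of all genes, with a median log2 fold change at -0.27. With unadjusted library sizes 9 rose and 7 fell and the median turned to 0.14. In GAD67 over MEF 1 rose and 14 fell (median -2.08). The theta-class genes Gstt2 and Gstt3 stood at 28.3 ± 2.01 and 27.8 ± 1.71 CPM in iGABA, 0.334 ± 0.143 and 0.0977 ± 0.0114 in GAD67, and 3.08 ± 0.458 and 6.67 ± 0.389 in MEF cells. Gsta2 was at 5.81 ± 0.586 CPM in iGABA with no count in GAD67 or MEF libraries, at least 217-fold higher than in GAD67 and at least 176-fold higher than in MEF cells against 3 counts over the group. It has close paralogs, so its own share of these reads is uncertain. Of 18 genes of glutathione synthesis and use, 8 rose and 9 fell in iGABA over MEF (9 and 7 with unadjusted library sizes). In GAD67 over MEF 3 rose and 13 fell (4 and 13 with unadjusted library sizes). The secreted peroxidase Gpx3 fell 114-fold in iGABA and 147-fold in GAD67 over MEF, where it stood at 166 ± 6.79 CPM (edgeR, adjusted p = 4.27e-14 and 1.43e-14).

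Among 16 thioredoxin and peroxiredoxin genes, 6 rose and 8 fell in iGABA over MEF (9 and 6 with unadjusted library sizes). In GAD67 over MEF 4 rose and 11 fell (5 and 9 with unadjusted library sizes). Prdx2, a cytosolic peroxiredoxin abundant in neurons, stood at 376 ± 8.79 CPM in iGABA, 503 ± 24.8 in GAD67 and 159 ± 10.5 in MEF cells, and Prdx4 of the secretory pathway at 9.63 ± 0.776, 11.2 ± 1.55 and 136 ± 7.61. The mitochondrial peroxiredoxin Prdx3 was 5.58-fold higher in iGABA than in GAD67 cells (edgeR, adjusted p = 1.99e-12), at 77.8 ± 1.43 against 13.9 ± 0.481 CPM. Sestrin 2 (Sesn2), a stress-induced gene, was 49.8-fold higher in iGABA than in GAD67 cells, at 118 ± 6.58 against 2.37 ± 0.0219 CPM, with 77.2 ± 3.33 CPM in MEF cells.

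Of 12 tested genes that remove or make superoxide and peroxide, 3 rose and 8 fell in iGABA over MEF (4 and 6 with unadjusted library sizes). In GAD67 over MEF 1 rose and 10 fell (2 and 9 with unadjusted library sizes). The phagocyte oxidase gene Cybb had 3 counts over the iGABA libraries and stood at 18.4 CPM in MEF cells, whose macrophage markers are given above. Their part in that difference was not tested. Its partner subunit gene Cyba stood at 176 ± 3.32 CPM in iGABA, 0.283 ± 0.0647 in GAD67 and 89.2 ± 4.25 in MEF cells, 611-fold higher in iGABA than in GAD67 cells (edgeR, adjusted p = 3.91e-15).

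Around Gpx4, 7 of 16 tested ferroptosis and selenium genes rose and 7 fell in iGABA over MEF (9 and 6 with unadjusted library sizes). In GAD67 over MEF 4 rose and 11 fell (5 and 11 with unadjusted library sizes). The transferrin receptor Tfrc, which brings in iron, stood at 307 ± 17.9 CPM in iGABA, 112 ± 2.45 in GAD67 and 15.3 ± 0.630 in MEF cells, 20.0-fold higher in iGABA than in MEF cells (edgeR, adjusted p = 1.02e-14). The iron exporter Slc40a1 was 25.9-fold lower in iGABA than in MEF cells, with an edgeR adjusted p of 2.23e-08. It was also 22.2-fold lower in GAD67 than in MEF cells (edgeR, adjusted p = 2.19e-08). The part of macrophages in its MEF level was not tested. The lipid-remodelling enzyme Acsl4 was 6.11-fold higher in iGABA than in GAD67 cells (edgeR, adjusted p = 6.75e-13). The ubiquinone reductase Aifm2 was higher too, at 31.5 ± 2.30 against 2.32 ± 0.409 CPM (edgeR, adjusted p = 4.50e-12). Of 8 tested genes of haem breakdown and iron storage, 1 rose and 4 fell in iGABA over MEF (4 and 4 with unadjusted library sizes), with biliverdin reductase Blvrb 6.13-fold lower. In GAD67 over MEF 1 rose and 7 fell (1 and 5 with unadjusted library sizes), with Blvrb 60.0-fold lower.

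Slc7a11 is also a target of ATF4, the factor of the integrated stress response. Of 16 genes of that pathway, 2 rose and 13 fell in iGABA over MEF (median log2 fold change -0.88; 3 and 11 with unadjusted library sizes), and 1 rose and 15 fell in GAD67 over MEF (median -3.14). Between iGABA and GAD67 cells 14 were higher and 2 lower in iGABA (14 and 1 with unadjusted library sizes). Trib3, a pseudokinase induced by ATF4, stood at 42.3 ± 1.26 CPM in iGABA, 0.381 ± 0.113 in GAD67 and 72.7 ± 4.01 in MEF cells, and the serine synthesis gene Psat1 at 21.1 ± 3.89, 27.8 ± 2.53 and 257 ± 11.8. Some genes, such as Blvrb and Mgst1, stand in more than 1 list, and no list was tested against others.

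**Figure D4:**
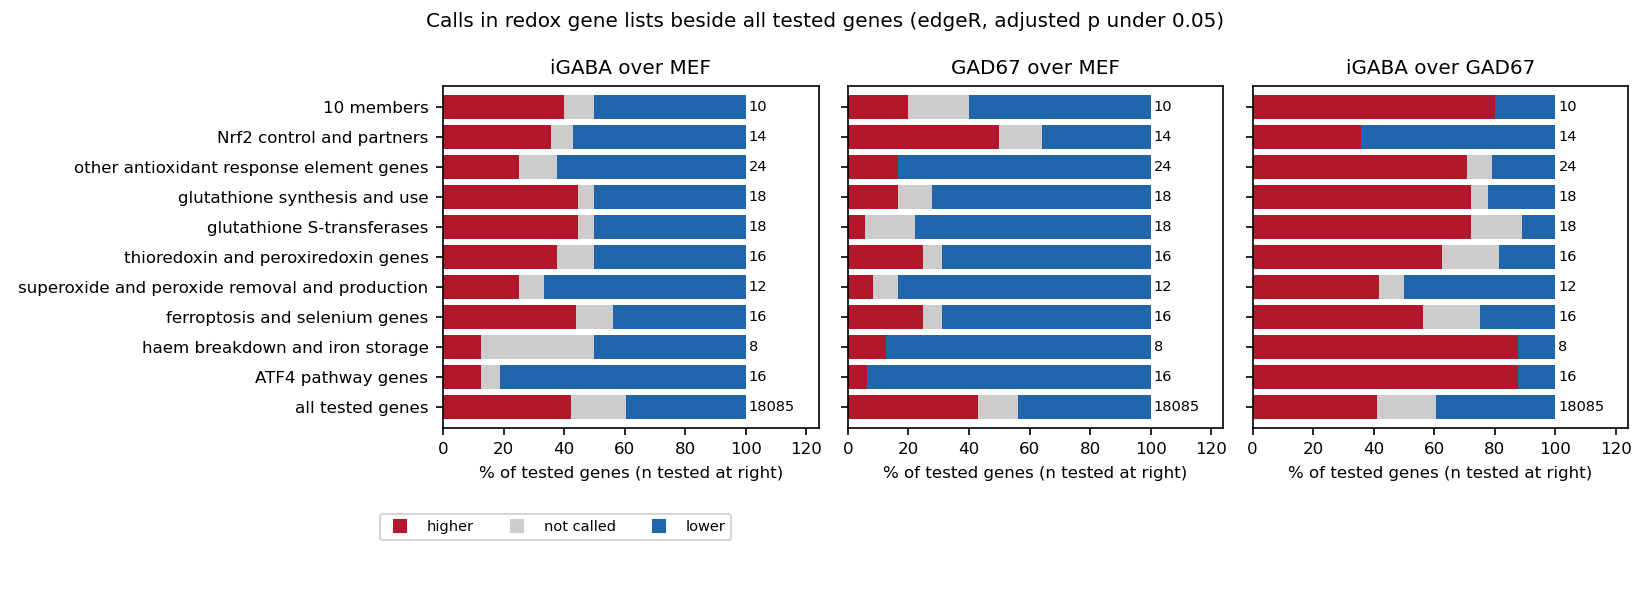
Share of tested genes in each redox list that edgeR called higher, lower or neither at adjusted p under 0.05, with all tested genes in the bottom row and the number tested at the right. In GAD67 over MEF, 20 of 24 other antioxidant response element genes and 15 of 16 ATF4 pathway genes were lower, while in iGABA over GAD67, 14 of the ATF4 pathway genes were higher.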

How the data were processed

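Counts per gene were deposited by the authors as whole numbers, not normalised. Per the submitters' processing notes, BWA 0.7.2, featureCounts and DESeq 1.10.1 were used with mm10. The sources used here give no order, annotation release or strand setting, so overlapping genes on opposite strands cannot be told apart. Symbols were matched through GENCODE vM21 for 35449 genes (95.2%). Genes were filtered with filterByExpr (minimum count 10, minimum total 15), scaled by TMM and tested with edgeR 4.0.16 in R 4.3.3, by the quasi-likelihood test fitted to all 9 libraries, with Benjamini-Hochberg adjustment over 18085 genes and a call at adjusted p under 0.05. Normalised CPM use TMM-scaled library sizes. The 95% intervals are approximate. Each uses a standard error derived from the log2 fold change and its quasi-likelihood F value, times a quantile of the t distribution. Transcript copies were sought by blastn over at least 100 bases at 90% identity or more.

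The 10 genes and the lists were chosen with earlier results of these data known. All 10 genes are named. From each list the text draws on the 4 called genes with the largest change per comparison and at least 1 CPM in a group, and on the direct partners Gsr, Gss, Slc3a2, Hmox2, Txn1, Nfe2l1, Bach1, Sqstm1 and Cul3. Values of such genes are also given for the other comparisons. Promoter windows and motifs were chosen after the data were seen. Alternatives were other scalings (DESeq2's size factors, or library size alone, called unadjusted library sizes in the text), no filter, DESeq2 1.42.0, fits of 2 groups, and leaving out each library.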

Additional observations from a re-analysis of the deposited data

How the results depend on the processing

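No paired analysis was possible because the replicate numbers run from 1 to 9 and no group shares a number with another. In iGABA over GAD67 all 140 alternative values of the 10 genes kept direction and call. In iGABA over MEF 137 of 140 did so and in GAD67 over MEF 138 of 140, where a change of sign counted only if either fit called the gene. Keap1, not called in GAD67 over MEF with TMM, took log2 fold changes from -0.02 to 0.25 across the alternatives. Every counted exception came with scaling by library size alone. Over all genes the median log2 value was then 0.46 in iGABA over MEF and 0.22 in each of the other comparisons, against 0.05, 0.00 and 0.02 with TMM, so small changes hold relative to TMM. In iGABA over MEF it called 9941 genes higher and 5283 lower, against 7618 and 7188. With it, 6 of the 10 genes were higher and 3 lower in iGABA over MEF, against 4 and 5, as Hmox1 (log2 fold change 0.11), Txnrd1 (0.11) and Gpx4 (0.30) changed sign, and 4 and not 2 were higher in GAD67 over MEF, where Gclm (0.22) changed sign and Keap1 (0.25) gained a call. Among other named genes it turned Gsr (0.40) and Sqstm1 (0.35) in iGABA over MEF and Cul3 (0.13) in GAD67 over MEF. Hmox2 gained a call in iGABA over MEF (0.54) and lost it in GAD67 over MEF (-0.12), and DESeq2's Wald test called Cul3 in GAD67 over MEF (-0.11). Leaving out any library left the counts of called genes among the 10 as they were. Nqo1 and Slc7a11 in GAD67 cells rest on few counts, which limits their folds.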
